A study of Mus musculus with 8 samples.

Results

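The SoxF family comprises *Sox7*, *Sox17* and *Sox18*, 3 of the 21938 protein-coding genes of the mouse annotation used here. Peaks of an accessibility comparison in embryonic hearts were linked to them. A peak was assigned to a gene if the transcription start site (TSS) of that gene was the nearest of any protein-coding gene, or if the peak lay within 10 kb of the gene body. By this rule 4 of the 12991 peaks gained in *Chd4-CMko* hearts belonged to the family, and 0 of the 2745 lost peaks did. *Sox7* had 2 gained peaks and *Sox17* had 2. *Sox18* had no peak in either list. Of all protein-coding genes, 37.4% had at least 1 gained peak and 10.8% at least 1 lost peak by the same rule.

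The lists come from ATAC-seq, in which the Tn5 transposase cuts accessible DNA, on whole hearts of mouse embryos at E10.5 (embryonic day). There were 4 WT samples and 4 *Chd4-CMko* samples, with several hearts pooled in each, and the sources give either 3 or 4 hearts per pool. *Chd4-CMko* is a conditional knockout of *Chd4*, the remodelling subunit of the repressive NuRD complex, in cardiomyocytes. The crosses the study describes at this stage combine a floxed *Chd4* allele with Cre expressed from *Tnnt2*, a cardiomyocyte gene, and the controls were littermates, for which the labels give only WT. No agent was given. A gained peak passed a 2-fold limit as higher in *Chd4-CMko* hearts, and a lost peak as higher in WT hearts, a direction read from the names of the lists. The lists hold 1 score per peak and no value per sample. No replicate error, interval or test between genotypes could therefore be given for any peak. The sequencing depth behind a score is not in the lists.

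SoxF proteins are transcription factors that bind DNA through a high-mobility-group (HMG) box and bend it, and a C-terminal region of theirs activates transcription. They are known from the endothelium, where they act in part redundantly in arterial and lymphatic specification, and in the heart they are expressed in the endocardium, the inner endothelial lining. *Sox17* also acts in definitive endoderm, and *Sox18* is mutated in the ragged mice, which have defects of vessels and lymphatics. Cre from *Tnnt2* acts in cardiomyocytes, whereas these genes are known from endothelial cells. In whole hearts, a change in the share of a cell type and a change in accessibility per cell cannot be told apart.

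Sequences are shown for 3 of the 4 peaks, read from the reference genome (mm10, GRCm38) in the direction of the gene. The upstream peak of *Sox7* at chr14:63933260-63933410 (plus strand) is shown because it lies apart from any gene, and capitals mark the palindrome CACGTG and 2 copies of GGGCGTGGC. The first *Sox17* peak at chr1:4492056-4492206 (minus strand) is shown because the whole of it is coding sequence, and capitals mark a GC box (GGGCGG, here read as its reverse complement). Of the second *Sox17* peak, a 30-base stretch at chr1:4493645-4493674 (minus strand) is shown because it holds a GC box beside a CCAAT string, both in capitals and both read as reverse complements.
Sox7 upstream peak: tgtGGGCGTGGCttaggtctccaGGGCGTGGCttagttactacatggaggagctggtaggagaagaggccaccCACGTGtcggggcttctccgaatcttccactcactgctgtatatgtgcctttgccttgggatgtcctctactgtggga
Sox17 coding-exon peak: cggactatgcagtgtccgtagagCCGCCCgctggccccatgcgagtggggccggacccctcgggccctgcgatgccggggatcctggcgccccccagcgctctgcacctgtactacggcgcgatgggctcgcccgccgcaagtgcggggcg
Sox17 second peak, stretch: ccggtCCGCCCccgcctcgccATTGGccgc

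*Sox7* (ENSMUSG00000063060.6, chr14:63943673-63950732, plus strand, mm10) has 1 annotated transcript of 2 exons. Its higher-scoring gained peak lay in the promoter, at chr14:63943481-63943631, and ended 42 bp before the TSS. Its score was 282.0, which ranked 417 among the 12991 gained peaks, at percentile 96.8, and 16 among the 549 gained peaks of chromosome 14. The score is taken as HOMER's scaled tag count, a measure of how many reads fell in the peak, and is comparable only within a list. Read in this way, it does not give the size of the difference between genotypes. The median score was 62.50 over all gained peaks and 99.00 over gained promoter peaks, a promoter being the 3 kb on either side of any TSS. Among promoter peaks the *Sox7* peak stood at percentile 91.5. Promoter peaks made up 30.9% of the gained list.

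The *Sox7* promoter peak was also rich in G and C, at 82.8% of its 151 bases. The median of gained peaks was 55.0%, and 60.3% for promoter peaks, so that the *Sox7* peak lay at percentile 99.5 of the list and 98.5 of its promoter peaks. It held 19 CpG dinucleotides, with a ratio of observed to expected CpG of 0.752. Over 500 bp around its centre the GC content was 71.4%. Simple or interspersed repeats, as masked in the reference, covered 15.2% of the peak.

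The other *Sox7* peak, at chr14:63933260-63933410, was intergenic and 10263 bp upstream of the TSS. It lay just beyond the 10 kb window around the gene and was assigned because the TSS of *Sox7* was the nearest. Its score of 44.00 ranked 9049 in the list, at percentile 30.0, and 356 among the 549 gained peaks of chromosome 14. Its GC content of 56.3% lay near the middle of the list (percentile 56.0), and at percentile 66.1 among gained peaks outside promoters, whose median was 53.6%. The 2 peaks of *Sox7* thus stood far apart in score. The next gained peak outward was 54.93 kb from the TSS, had a score of 73.50 and was nearest to *Pinx1*, a telomerase inhibitor gene, so that it was not assigned to *Sox7*.

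*Sox17* (ENSMUSG00000025902.13, chr1:4490931-4497354, minus strand, mm10) has 8 annotated transcripts with 8 start sites, of which 4 transcripts carry the tag basic that GENCODE gives to complete or representative models. Both of its gained peaks lay inside the gene body, 1327 bp apart. Of all gained peaks, 5.57% started within 2 kb of the start of another. The first, at chr1:4492056-4492206, had a score of 169.0 (rank 1606 of 12991, percentile 87.6, and rank 78 of the 835 gained peaks of chromosome 1). The second, at chr1:4493533-4493683, had a score of 113.0 (rank 3106, percentile 76.0, and rank 164 on the chromosome). Both scores were above the median of gained promoter peaks.

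The first *Sox17* peak lay wholly in the last coding exon of the 4 basic transcripts. In Sox17-201, which encodes 419 codons, it covered codons 257 to 307, in the part of the protein that follows the HMG box. Few gained peaks had such a position: 1.39% (181 of 12991) lay wholly inside 1 coding exon, and 6.47% overlapped coding sequence at all. A coding exon shorter than a peak cannot hold it, so the first share also depends on exon lengths, which were not examined. The shares in the lost list were 0.474% and 2.11%. The peak was classed as promoter because it lay 1398 bp from the start of Sox17-205, a retained-intron transcript. The nearest start of a basic transcript was 4157 bp away, and against basic transcripts the peak was exonic. Its GC content was 74.8% (percentile 94.9 of gained peaks, 84.8 of gained promoter peaks), with 19 CpG dinucleotides and a ratio of observed to expected CpG of 0.899.

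The second *Sox17* peak covered the start site of Sox17-205 at position 4493604 and lay 52 bp downstream of that of Sox17-204, in whose 5′UTR it fell. Neither transcript is basic. In the basic transcripts it was intronic, and the nearest basic start was 2680 bp away, still within the 3 kb of the promoter definition. Its GC content was 67.5% (percentile 88.8 of gained peaks, 69.7 of gained promoter peaks), with 14 CpG dinucleotides and a ratio of observed to expected CpG of 0.821. No peak of either list lay at the start sites of the basic transcripts themselves.

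**Figure D1:**
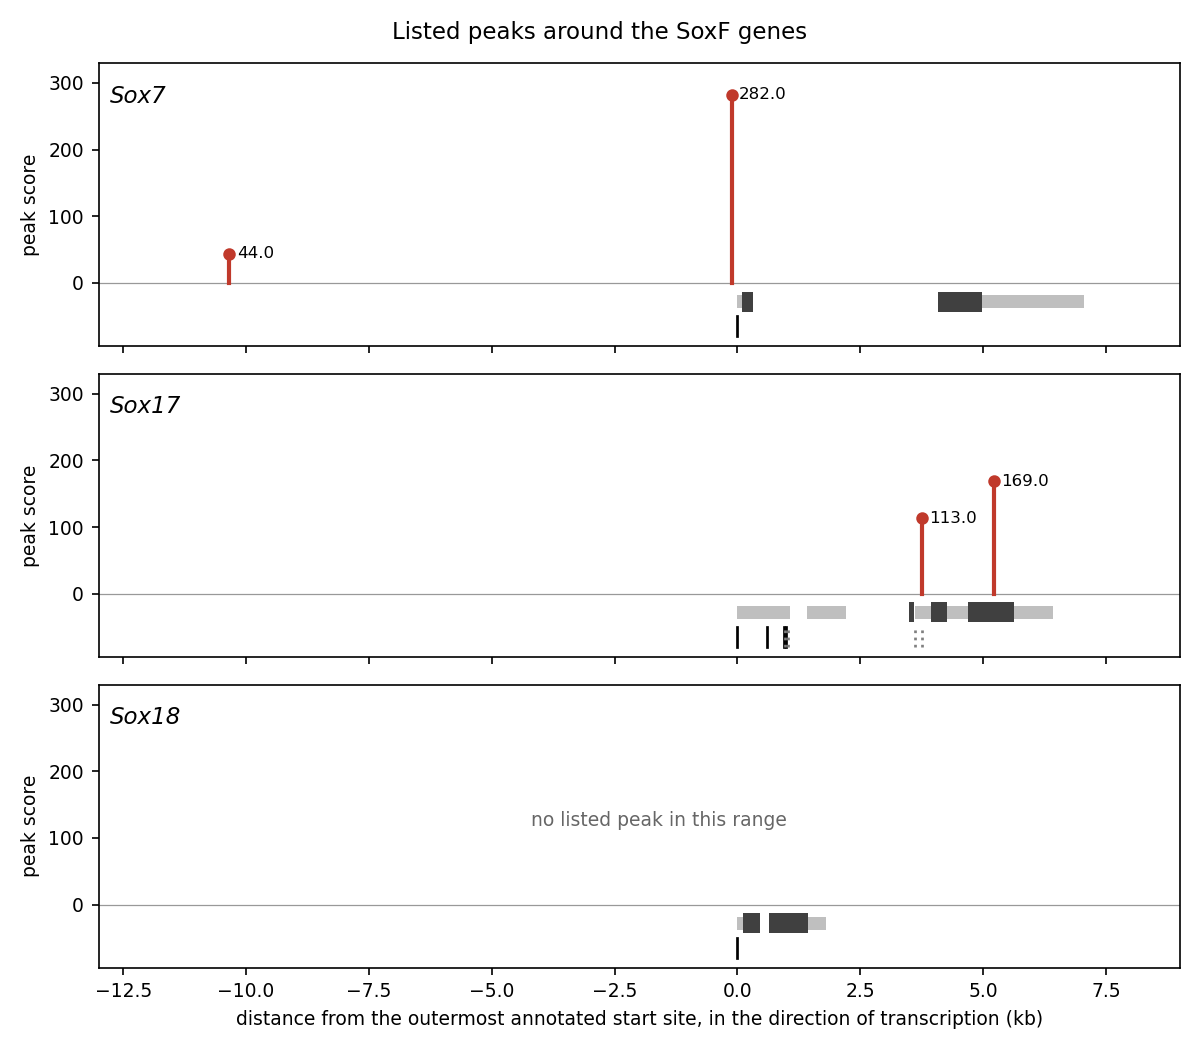
Position (kb from the outermost annotated start site, in the direction of transcription) and score of the gained peaks (red stems) at *Sox7*, *Sox17* and *Sox18*, with exons (grey), coding exons (black) and start sites below (solid for basic transcripts, dotted for others). The *Sox7* promoter peak reached 282.0, both *Sox17* peaks (113.0 and 169.0) stood in the second part of the gene, and *Sox18* had none.

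*Sox18* (ENSMUSG00000046470.5, chr2:181669836-181671640, minus strand, mm10) is a compact gene of 1805 bp with 1 transcript. The nearest gained peak was 111.3 kb from its TSS (chr2:181560204-181560354, score 27.50, nearest to *Uckl1*), and the nearest lost peak 133.7 kb away (chr2:181537770-181537920, score 77.80, nearest to *Dnajc5*). All 5 other protein-coding genes with a TSS within 50 kb of *Sox18*, namely *Gm29797*, *Tcea2*, *Rgs19*, *Lkaaear1* and *Oprl1*, also had 0 gained and 0 lost peaks. The lists hold only peaks that differed between genotypes. They therefore do not show whether the *Sox18* promoter was open in both genotypes, closed in both, or changed by less than the authors' limit.

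Set against the 37.4% of genes with a gained peak, 16.3% had at least 2, as *Sox7* and *Sox17* did. A gained promoter peak was found for 12.4% of genes, among them *Sox7* and *Sox17*, and 2 or more for 1.82%, among them *Sox17*. The count of 2 for *Sox17* became 1 with basic transcripts only or with a promoter of 1 kb. A lost promoter peak was found for 1.24% of genes and any lost peak for 10.8%, so that the absence of lost peaks from the 3 SoxF genes was the common state. Neither kind of peak was found for 58.2% of genes other than *Sox18*. With 3 members these shares are given as a description.

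The genes differ in how much sequence is nearer to their start sites than to those of other genes, and thus in how many peaks they can collect. This stretch was 189.5 kb for *Sox17* (percentile 84.8 of coding genes), 34.43 kb for *Sox7* (percentile 41.0) and 11.64 kb for *Sox18* (percentile 11.7). *Sox17* had 0 other coding genes with a TSS within 50 kb, *Sox7* had 3 and *Sox18* had 5. In spite of its long stretch, *Sox17* had no gained peak outside its gene body.

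The distance from the TSS to the nearest gained peak does not use the assignment, but it depends on the start sites counted. Over all annotated starts it was 0 bp for *Sox17*, a value set by Sox17-205 that becomes 2680 bp over its basic starts. It was 42 bp for *Sox7* and 111.3 kb for *Sox18*, against a median of 47.1 kb over the 21755 coding genes for which it could be measured. *Sox7* stood at percentile 5.01 of these distances and *Sox18* at percentile 69.2. The nearest lost peak was 833.1 kb from *Sox7* (percentile 77.0), 251.8 kb from *Sox17* (percentile 42.0) and 133.7 kb from *Sox18* (percentile 27.0).

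Within 50 kb of the gene body, *Sox7* and *Sox17* each had 2 gained peaks and *Sox18* had 0, against a median of 1 over coding genes. Within 250 kb the order was another, with 8 gained peaks around *Sox7*, 5 around *Sox18* and 2 around *Sox17*, against a median of 4. Lost peaks within 250 kb numbered 0, 1 and 1 for *Sox7*, *Sox18* and *Sox17*. The 2 *Sox17* peaks were the first gained peaks of chromosome 1, and the next lay 1568 kb further on, a gap at percentile 98.2 of the 12971 gaps between consecutive gained peaks (median 65.6 kb). All 5 gained peaks near *Sox18* lay on its downstream side, the 2 with the highest scores (157.0 and 121.5) near *Zbtb46* and *Abhd16b*.

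**Figure D2:**
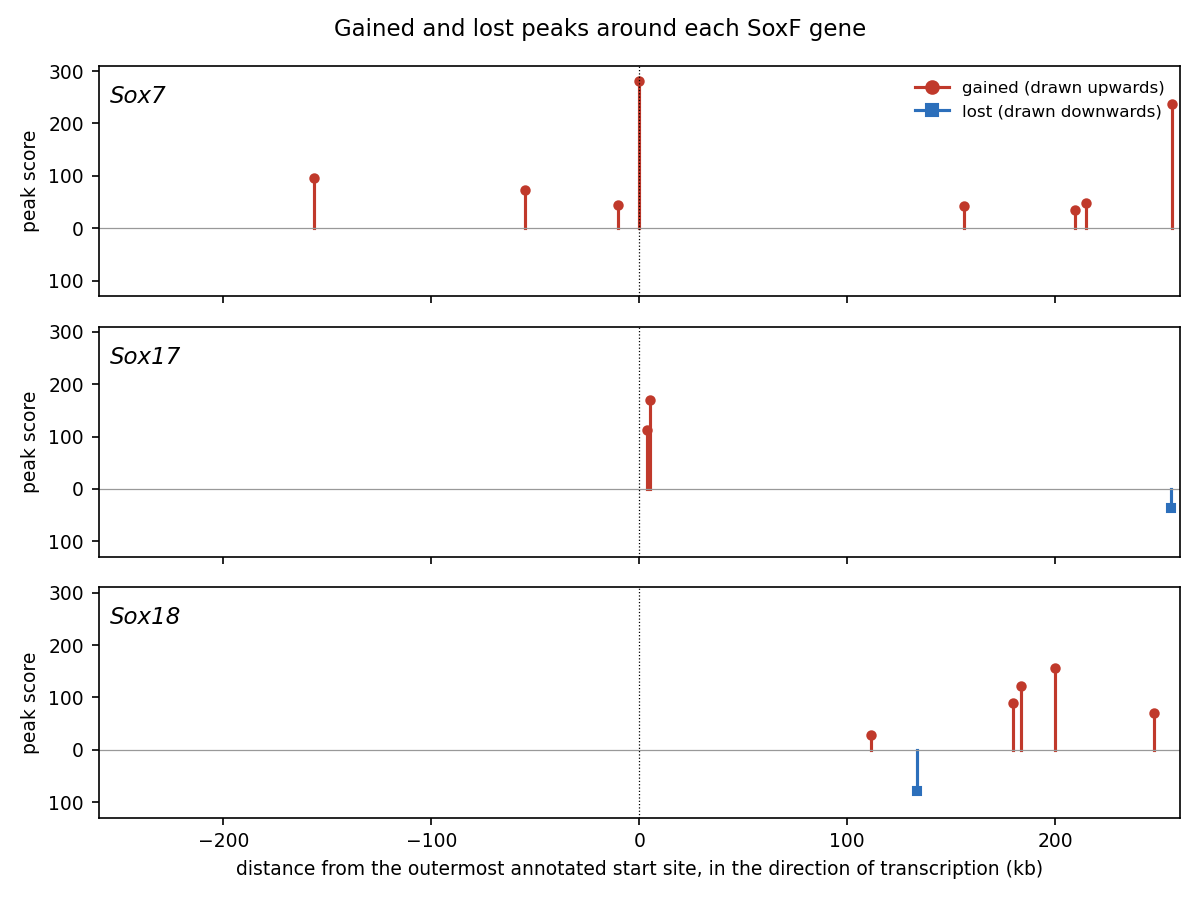
Score of the gained (red, upwards) and lost (blue, downwards) peaks by distance in kb from the outermost annotated start site of each SoxF gene, in the direction of transcription, with scores comparable only within a list. The *Sox17* pair stood alone among gained peaks, *Sox7* had gained peaks on both sides, and those of *Sox18* began 111.3 kb downstream.

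The adjoining genes had few peaks. *Pinx1*, left of *Sox7*, had 1 gained peak outside its promoter, and 4930578I06Rik and *Rp1l1*, a photoreceptor gene, to the right had none. *Rp1*, another photoreceptor gene, adjoins *Sox17* and had 1 lost peak with a score of 36.40. *Mrpl15*, for a mitochondrial ribosomal protein, on the other side had none. The gained promoter peaks at *Sox7* and *Sox17* were thus not shared with a neighbouring gene.

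**Figure D3:**
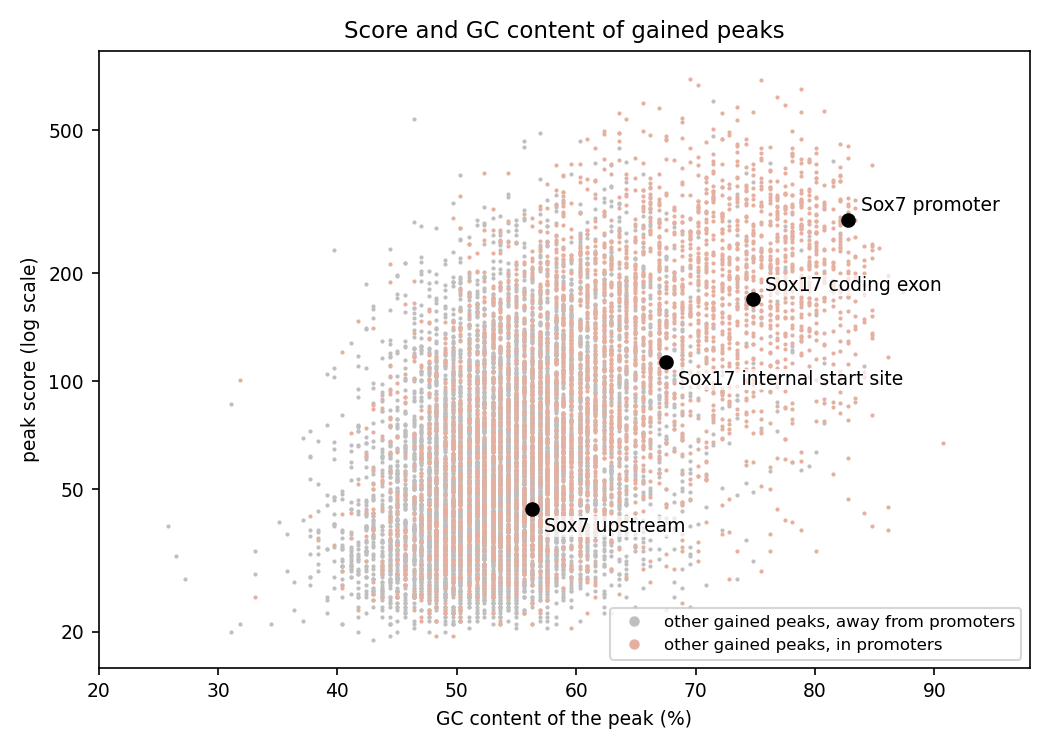
GC content (%) and score (log scale) of the 12991 gained peaks, those in promoters in pink and the others in grey, with the 4 SoxF peaks as black points. The *Sox7* promoter peak lay at the GC-rich, high-scoring edge, the *Sox17* peaks below it, and the *Sox7* upstream peak within the bulk.

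Promoter sequence was compared between the members over the window from 250 bp before to 50 bp after each TSS, taking the highest value where a gene has several. The GC content was 76.3% for *Sox7* (percentile 92.8 of coding genes), 65.3% for *Sox17* (65.4) and 63.7% for *Sox18* (60.4). The ratio of observed to expected CpG was 0.785 for *Sox7*, 0.854 for *Sox17* and 0.496 for *Sox18*, the last at percentile 37.0. Of the 8814 coding genes with a promoter GC content at or above that of *Sox18*, 18.6% had a gained promoter peak, against 8.22% of the 13124 below it. The limit was set at *Sox18*, so that over all starts the 3 members fall in the first group by construction. The values of *Sox17* depend on the start taken. Its highest GC content is that of Sox17-205, which is not basic and has a CpG ratio of 0.627, and its highest CpG ratio that of Sox17-206, 3671 bp from a gained peak. Over its 4 basic starts the GC content ran from 52.7% to 59.3% and the CpG ratio from 0.422 to 0.854, a range that holds the ratio of *Sox18*. All of these GC contents were below that of *Sox18*, so that with basic starts the order of the 2 genes in GC content is reversed and *Sox17* falls below the limit.

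The peaks were searched on both strands for 15 short strings that are known binding motifs. Strings of SOX factors themselves were found in 0 of the 4 SoxF peaks. The core string ACAAT was held by 11.1% of gained peaks, its second form ACAAAG by 7.83%, and the SoxF-preferred form AACAAT, which contains the core string, by 2.52%. Strings of endothelial and cardiac factors were in 0 of 4 as well. In the gained list AGGAAG, for ETS factors, was in 22.8% of peaks, TGGGAA, for RBPJ, in 13.9% and AGATAA, for GATA factors, in 11.1%. The TEAD string ACATTCC was in 3.76%, and the MEF2 strings were in 1.76% for TAAAAATA and 1.11% for the second form TATTTATA. The KLF string GGGTGTGGC (2.29% of gained peaks) and the CTCF motif (65 of 12991) were also in 0 of 4. All of these strings were missing from most gained peaks. A string that is missing from 151 bases says only that these letters are not there.

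Of the 15 strings, 4 were found. The GC box (GGGCGG), known as the site of SP factors, was in 3 of the 4 peaks with 5 matches in all: 3 in the *Sox7* promoter peak and 1 in each *Sox17* peak. These 3 peaks are all classed as promoter, and the GC box was in 39.5% of gained promoter peaks. Over the whole lists it was in 22.5% of gained and 2.95% of lost peaks. CCAAT, the string of NFY, was in the *Sox7* promoter peak and in the second *Sox17* peak, once each. It was in 24.4% of gained promoter peaks, 29.3% of all gained and 12.4% of lost peaks. The *Sox7* upstream peak held CACGTG, an E-box (4.79% of gained and 1.68% of lost peaks). This palindrome contains ACGTG, the core of the hypoxia response element, on both strands, so that the 2 matches of ACGTG (10.2% of gained and 6.63% of lost peaks) are the same bases. The 2 copies of GGGCGTGGC near its 5′ end, a form of the KLF string noticed only after the sequence had been read, make this peak 1 of 332 gained peaks (2.56%) that hold it.

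The rest of the Sox family was then set beside SoxF. The family has 20 genes in the list used, and 16 (80.0%) had a gained peak, against 37.4% of all coding genes. A gained promoter peak was found for 11 (55.0%), against 12.4%, a lost peak for 5, against 10.8%, and a lost promoter peak for 0, against 1.24%. Without the SoxF genes the counts were 14, 9 and 5 of 17. *Sox7* and *Sox17* thus had what most Sox genes had, and *Sox18* was among 4 of 20 with neither kind, the others being *Sry*, *Sox8* and *Sox15*. The median stretch nearest to the start sites of the family's genes was 143.9 kb, against 45.07 kb over all coding genes. Those of *Sox7* (34.43 kb) and *Sox18* (11.64 kb) were below the median of all coding genes.

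Among the 12 gained promoter peaks of the family, the *Sox7* peak had the highest score and the highest GC content. Next in score came *Sox1* (259.0), *Sox6* (235.0), *Sox30* (198.5), *Sox5* (191.0) and *Sox21* (175.5), and then the *Sox17* peaks at ranks 7 and 8. *Sox10* (91.50), *Sox14* (88.50), *Sox2* (88.00) and *Sox3* (61.50) were lower. In GC content the *Sox17* peaks ranked 4 and 8. By the 3 kb definition over all transcripts, *Sox17* was alone in the family in having 2 gained promoter peaks. The count rests on starts of transcripts that are not basic, and it was 1 with basic transcripts only or with a promoter of 1 kb. The *Sox7* upstream peak, by contrast, was ordinary among the 43 gained peaks of Sox genes outside promoters, whose median score was 44.50.

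The subgroups hold 1 to 3 genes each, so their counts are given as a description, beside the 55.0% of Sox genes and 12.4% of all coding genes with a gained promoter peak. All 3 SoxB1 genes (*Sox1*, *Sox2* and *Sox3*, neural and stem cell factors) had a gained promoter peak, as did both SoxB2 genes. The 3 SoxC genes (*Sox4*, *Sox11* and *Sox12*) had 12 gained peaks in all and 0 in promoters. *Sox6* and *Sox5*, SoxD genes of cartilage and muscle, had the most gained peaks, with 9 and 7, followed by *Sox9*, which drives valve and cartilage development, and *Sox11*, each with 6. Lost peaks were most numerous at *Sox6* (6), *Sox2* (4) and *Sox11* (3). SoxE had 8 gained and 0 lost peaks, and SoxF 4 gained and 0 lost.

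**Figure D4:**
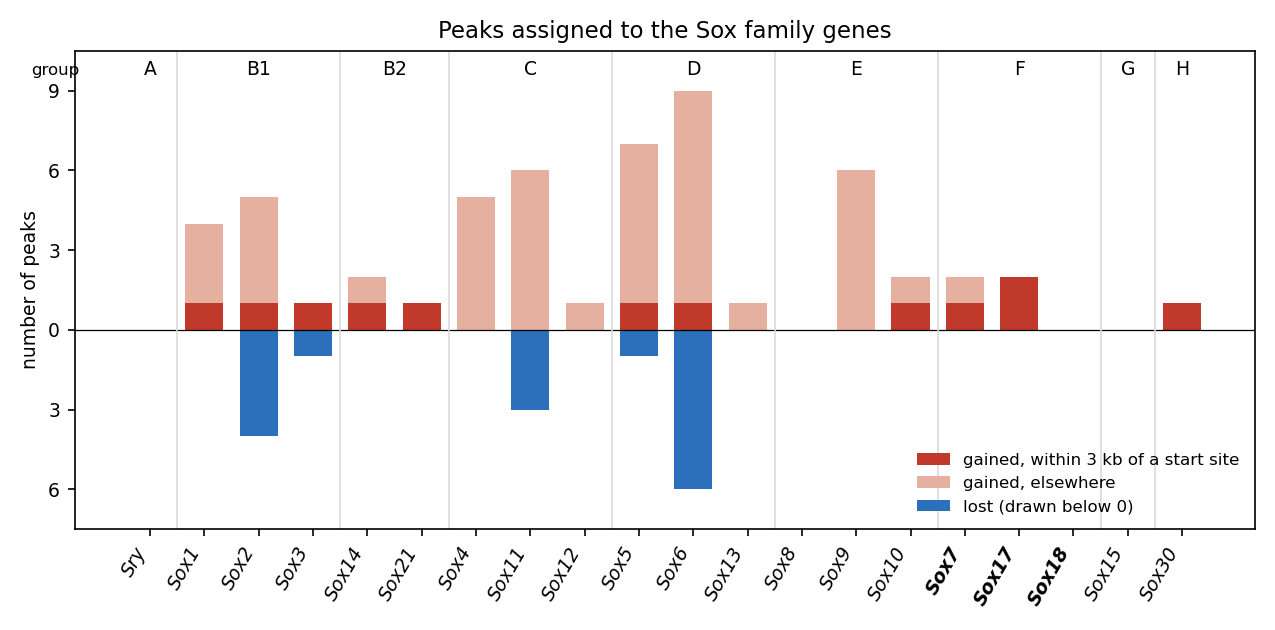
Number of gained peaks within 3 kb of a start site (dark red), gained peaks elsewhere (pink) and lost peaks (blue, below 0) for the 20 Sox genes by group, SoxF genes in bold. *Sox7* and *Sox17* had 2 gained peaks each and no lost peak, *Sox18* had none, and *Sox6* had the most of both kinds.

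Genes linked to SoxF in vessels and endocardium were taken from a list of 25. Of these, 19 (76.0%) had a gained peak, against 37.4% of all coding genes, and 5 a lost peak, against 10.8%. A gained promoter peak was found for 3 of the 25, which is near the 12.4% of all coding genes and is no result about the list. The median stretch nearest to their start sites was 126.9 kb, so that more peaks can fall to them than to a typical gene. These 3 are all on the list as reported targets of SoxF. *Notch1*, a receptor of arterial fate, had one with a score of 218.5 at 1253 bp from a TSS. *Dll4*, its ligand, had one with a score of 154.0 at 1234 bp. *Robo4*, a guidance receptor of endothelium, had one with a score of 47.00 at 2572 bp. At *Notch1* and *Robo4* the start measured from lies inside the gene body, away from both of its ends. Whether these starts belong to basic transcripts was not tested.

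By role, 8 of 10 partners and upstream factors, 10 of 13 targets and 1 of 2 antagonists had a gained peak, against the 37.4% of all coding genes. Gained promoter peaks were found for 0 of 10, 3 of 13 and 0 of 2, against 12.4%. *Efnb2*, the arterial ephrin, had the most, with 9 gained and 3 lost peaks, but the nearest of these gained peaks was 62.86 kb from a TSS. A gained peak not assigned to *Efnb2* lay nearer, at 28574 bp from a TSS of the gene. *Prox1*, the lymphatic regulator that SOX18 induces, had 8 gained and 0 lost. *Ctnnb1*, which encodes β-catenin, *Kdr* and *Nrp1*, which encode receptors of VEGF signalling, had 5 gained peaks each. Lost peaks were most numerous at *Efnb2* (3) and at *Mef2c* (2), a partner of SOX18. *Tal1*, *Gata2*, *Cldn5*, *Vcam1*, *Tek* and *Ephb4* had no peak of either kind.

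Markers of the cell types of the heart were counted in the same way. Of 9 endothelial and endocardial markers, 7 had a gained and 3 a lost peak, against 37.4% and 10.8% of all coding genes. Some of these markers, such as *Kdr*, are also on the SoxF-linked list, so that their peaks are counted in both lists. The stretch nearest to the start sites is not given for the marker lists. Of 7 cardiomyocyte markers, 4 had a gained and 0 a lost peak. A gained promoter peak was found for 1 marker in each of the endothelial, cardiomyocyte and epicardial lists and for 0 erythroid markers, against 12.4% of all coding genes. The 4 epicardial markers had 1 with a gained and 3 with a lost peak, and the 5 erythroid markers 0 with a gained and 4 with a lost peak, 3 of these in promoters, against 1.24% of all coding genes with a lost promoter peak. The part of cell composition in the SoxF peaks was not tested.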

How the data were processed

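ATAC-seq was performed by the authors on 4 WT and 4 *Chd4-CMko* samples of pooled E10.5 hearts. Per the labels, reads were aligned to mm10 with BWA-MEM, peaks were called with HOMER (version 4.10.3) and annotated with ChIPseeker (version 1.20.0), and per the study's methods a 2-fold limit defined differential peaks. Read filters, treatment of duplicates and the Tn5 offset, and how samples were combined, are not given in the sources used here, and each can change which peaks pass. The sources also differ on the number of hearts per pool and on the sequencer.

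The deposited score of each peak, assigned by the authors, was read as HOMER's scaled tag count. The scale is not stated, so scores were compared only within a list. Percentiles give tied values their mid-rank. The deposited lists have no header and give no value per sample, and their names give the genotype in which the peaks are enriched.

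Peaks were assigned with GENCODE M21 in Python (3.11.15) with pysam (0.24.0), numpy (2.4.6) and scipy (1.17.1), and distances ran from the edge of the peak to the TSS. Classes were tried in turn, a promoter (3 kb) first, then the 5′UTR and 3′UTR, other exons, introns, and last intergenic sequence. Assignment, promoter calls and the motif search were tested on simulated data. No statistical test was made. The members, gene lists and strings were chosen with earlier results of these data known. Named genes were the members, the nearest coding gene on either side of each, coding genes with a TSS within 50 kb, and those of the Sox and SoxF-linked lists with a promoter peak or among the 3 with the most gained or lost peaks. For each member with a peak, up to 3 genes with the same counts and the nearest summed score were named as well. The lists were the Sox family, SoxF-linked genes and markers. Genes of these lists with no peak, the other Sox genes with 1 or more, and genes nearest to peaks around the members were named after their values were seen. The sequences come from the reference genome, and *Sox7*, *Sox17* and *Sox18* have no entry in the RefSeq promoter table used here.

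The alternatives changed the assignment window, the TSS set, the promoter width, the score limit, the order of classes, the window for GC content and the mismatches allowed in strings.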

Additional observations from a re-analysis of the deposited data

How the results depend on the processing

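Of 69 alternative values, 50 were as reported, 8 changed within the limits set (1.5 times for a count or share, the 95% binomial interval over the bases for a GC content) and 11 moved beyond them. The 8 include the number of SoxF promoter peaks, 2 in place of 3 with basic transcripts only or a promoter of 1 kb. All 21 for lost peaks stayed at 0. The number of gained peaks of *Sox7* was 1 when only the window of 10 kb around the gene body was used, and 1 among gained peaks at or above the median score, where 24.7% of coding genes had a gained peak. The number of gained promoter peaks of *Sox17* was 1 with a promoter of 1 kb and 1 with basic transcripts only. With UTRs and exons tried before promoters, 1 SoxF peak was classed as promoter in place of 3. The GC content of the *Sox7* promoter peak was 71.4% over 500 bp. Allowing 1 mismatch, the number of strings present became 10 and 5 in the *Sox7* upstream and promoter peaks and 5 and 7 in the first and second *Sox17* peaks. Classes against basic transcripts only or a 1 kb promoter, and the second KLF string, were chosen after seeing the data. No paired analysis was possible because the deposited lists give no value per sample, and for the same reason no replicate could be left out. The lists do not give the number of reads behind a score.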

Other observations

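*Sox7*, with 1 gained promoter peak, 1 other gained peak and no lost peak, shared these counts with 487 other coding genes (2.22%). Its summed score of 326.0 lay at percentile 78.7 among them, and the genes nearest to it in summed score were *Megf11* (326.0), *Lbp* (327.0) and *Tsga10ip* (324.5). *Sox17*, with 2 gained promoter peaks and none other, shared its counts with 151 genes (0.688%). Its summed score of 282.0 lay at percentile 49.0 among them, and the nearest were *Rapsn* (281.0), *Nags* (280.5) and *Ttyh1* (285.5). The likeness is over counts and scores of peaks and not over samples. For *Sox17* it rests on a count of 2 gained promoter peaks, which was 1 with basic transcripts only or a promoter of 1 kb.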
